A study of Mus musculus with 12 samples.

Results

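The combined change of hepatocyte PPARα loss and a 6-week CDAHFD was described across genes by setting 3 liver libraries of PPARα KO mice on CDAHFD (KO CDAHFD) against 4 liver libraries of WT mice on chow (WT chow). These 7 of the 12 bulk RNA-seq libraries of the series were chosen by their genotype and diet labels, and the other 5 (3 WT CDAHFD and 2 KO chow) were used as the single-factor groups. The KO mice scored in the study's histology do not divide between the diets as these libraries do, and the diet labels of the KO libraries were taken as given. All mice were male C57BL/6J mice that carried a floxed Ppara allele (Ppara fl/fl), so the WT animals carried it too, and the KO animals also carried an Albumin-Cre transgene, which is active in hepatocytes and leaves Ppara intact in the other cells of the liver. Mice were 7 weeks old when the diets began and 13 weeks old when the livers were taken; the chow supplied 9% of its energy as fat, and CDAHFD, a high-fat diet that lacks choline and takes its protein as L-amino acids, supplied 62%. Both genotype and diet differ between the compared groups, so in this comparison alone their shares cannot be told apart, and each liver was measured as a whole, so fewer cells of a type and less RNA per cell cannot be told apart. The study calls its replicates biologically independent in captions of qPCR and blot figures. For RNA-seq it names 3 mice per group, which differs from the 4 WT chow and 2 KO chow libraries here. Each library was taken as an independent mouse. The p-values rest on the spread between libraries within groups, estimated over all 12.

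PPARα is a nuclear receptor that binds DNA with RXR when fatty acids reach it, and in the liver it switches on the uptake, activation, oxidation and ketogenic use of fatty acids during fasting. Choline is needed to make phosphatidylcholine, the main phospholipid coat of VLDL, and a liver that lacks it exports triglyceride poorly and stores it. Rodents on choline-deficient high-fat diets develop steatosis, inflammation and fibrosis, and a liver under such injury is repopulated by monocyte-derived macrophages, activates stellate cells that deposit collagen, and expands cells of the bile ducts.

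The 7 libraries held 29906785 to 40544457 counts. Values below are CPM, counts per 1000000 counts after TMM scaling, which are not divided by gene length, and adjusted p-values are those of the quasi-likelihood test in edgeR, adjusted by Benjamini-Hochberg across the 17358 genes that passed a filter on low counts. TMM factors were 0.7292 to 0.8268 in WT chow and 1.129 to 1.258 in KO CDAHFD. The 50 most counted genes took 32.1% to 34.5% of counts in WT chow and 24.6% to 26.4% in KO CDAHFD. With library size as the only scaling, the median log2 fold change over all genes moved from -0.04 to 0.57, a shift larger than many of the smaller falls. Livers also differed in cell markers: summed CPM of 10 monocyte and macrophage markers was 112 to 234 in WT chow and 1175 to 1271 in KO CDAHFD, that of 12 stellate cell and fibroblast markers 320.2 to 422 and 1682 to 2216, that of 12 cholangiocyte markers 80.8 to 116 and 647 to 975, and that of 10 hepatocyte markers 123669.7 to 137183 and 65147 to 82614, with none of these markers at 0 throughout. WT chow replicate 1 stood apart in acute phase and matrix genes, and KO CDAHFD replicate 3 stood apart in the core clock genes (a clock score, the mean z-score across libraries of the log2 CPM of genes that peak with Arntl minus that of genes that peak with Dbp and Per2, of -3.18 against 0.475 and 0.417, where WT chow held 1.98, 1.52, -1.98 and -2.09). Values without a library, or by clock score, stand beside the genes whose call or size they changed, and the part of either library or of the clock in other changes was not tested.

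Ppara itself (ENSMUSG00000022383, chromosome 15 from 85734983 to 85802819, GRCm38) was read first, as the gene that the KO targets. It stood at 120.1, 96.2, 238 and 226 CPM in WT chow against 36.3, 20.7 and 51.9 CPM in KO CDAHFD. The groups did not overlap, and the log2 fold change was -2.23 (SE 0.42, adjusted p = 6.41e-04), from 170.1 ± 72.3 CPM (SD, n = 4) to 36.3 ± 15.6 CPM (SD, n = 3). Counts cover the whole gene, so reads from other liver cells and from transcripts that lack the deleted part are included in the remaining signal. Ppara was also lower in WT CDAHFD (59.5, 75.5 and 73.5 CPM) than in WT chow (log2 -1.29, adjusted p = 0.0163). Each KO CDAHFD library was below each WT CDAHFD library, but that difference did not pass (log2 -0.94, adjusted p = 0.547). The fall against WT chow therefore does not by itself check the genotype label. Of the related receptors, Pparg, which drives fat storage and is also found in macrophages, rose 4.97-fold (log2 2.31, SE 0.25, adjusted p = 6.66e-06), while Ppard was at 35 ± 32.8 CPM (SD, n = 4) in WT chow and 15.9 ± 3.66 CPM (SD, n = 3) in KO CDAHFD and did not pass the test (-1.14, adjusted p = 0.156). Ppard passed, lower, without WT chow replicate 3 (log2 -1.46, adjusted p = 0.0476), with no filter on low counts (log2 -1.10, adjusted p = 0.0339) and among libraries with a clock score over 0 (log2 -1.78, adjusted p = 1.81e-04), while without WT chow replicate 1 (log2 -0.42, adjusted p = 0.565) and with a clock score under 0 (log2 0.56, adjusted p = 0.107) it did not.

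Of 17358 genes, 9091 (52.4%) passed the threshold of adjusted p under 0.05, with 4674 (26.9%) higher and 4417 (25.4%) lower in KO CDAHFD. Rises were larger than falls: 3516 genes (20.3%) were called and at least 2-fold higher, and 1316 (7.58%) were called and at least 2-fold lower. CPM of the 2 groups did not overlap for 8942 genes (51.5%). With library size as the only scaling, 9775 genes were higher and 1095 lower, so the balance of rises and falls depended on the scaling.

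**Figure D1:**
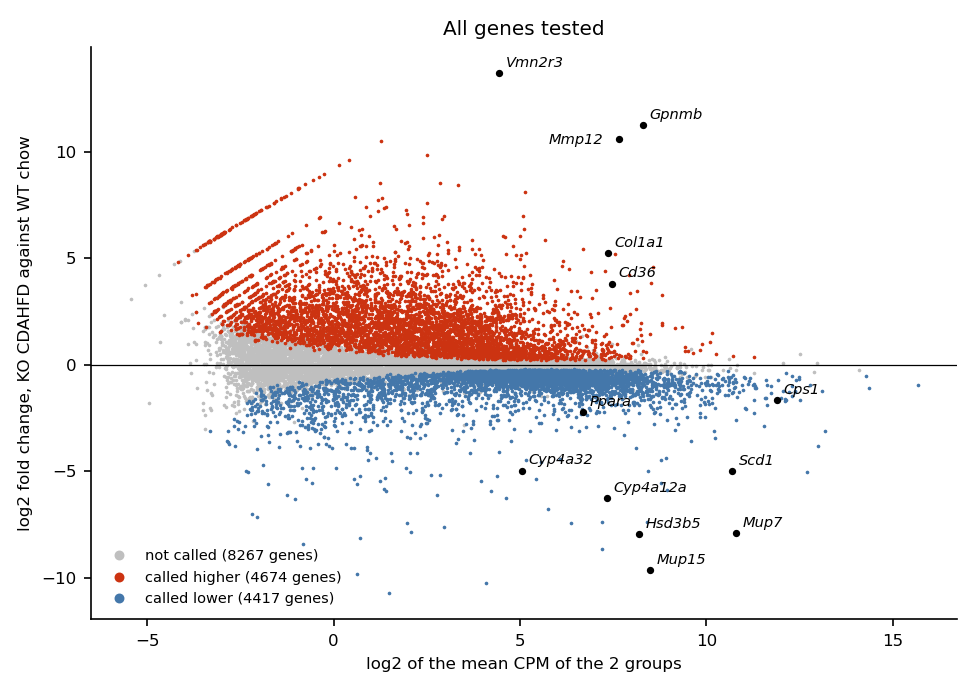
Log2 fold change of KO CDAHFD against WT chow (vertical axis) against the log2 of the mean CPM of the 2 groups (horizontal axis) for the 17358 genes tested; colours mark 4674 genes called higher, 4417 called lower and 8267 not called. Macrophage and matrix genes such as Gpnmb and Col1a1 lie at the top, and the male-biased Mup and Hsd3b5 genes at the bottom.

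The largest rises and falls were named only where CPM of the 2 groups did not overlap, so for them that separation is a condition of naming and not a finding. Genes of macrophages and matrix breakdown gave the largest rises among abundant genes. Gpnmb (ENSMUSG00000029816, chromosome 6 from 49036546 to 49070929), a glycoprotein of lipid-laden and phagocytic macrophages, was at 0.349, 0.22, 0.333 and 0.0917 CPM in WT chow against 657, 560.2 and 676 CPM in KO CDAHFD. Mmp12 (ENSMUSG00000049723, chromosome 9 from 7344381 to 7369499), the macrophage elastase, was at 0.311, 0.283, 0.233 and 0.229 CPM in WT chow against 392, 381 and 448 CPM in KO CDAHFD. In both genes every KO CDAHFD library was far above every WT chow library, and the rises were 2442-fold (log2 11.25, SE 0.26, adjusted p = 7.95e-11) and 1516-fold (log2 10.57, SE 0.27, adjusted p = 1.12e-10). Lgals3 (galectin-3, a lectin of activated macrophages) rose 42.8-fold (log2 5.42, SE 0.20, adjusted p = 2.62e-09), and Cd63, a lysosomal membrane protein, 29.3-fold (log2 4.87, SE 0.22, adjusted p = 9.15e-09). Col1a1, the major chain of fibrillar collagen, stood at 20.3, 4.44, 4.43 and 4.72 CPM in WT chow against 273, 300.1 and 394 CPM in KO CDAHFD. Its groups did not overlap and it rose 38.1-fold (log2 5.25, SE 0.49, adjusted p = 2.22e-06), but WT chow replicate 1 lay above the other WT chow libraries, and without it the rise was larger (log2 6.19, adjusted p = 2.33e-09).

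Several of the largest rises started from almost no reads. Vmn2r3 (ENSMUSG00000091572, chromosome 3 from 64257215 to 64289709), a gene of the vomeronasal receptor family, had no read in any WT chow library and 46.1, 58.1 and 26.8 CPM in KO CDAHFD, which is at least 389-fold higher against a floor of 3 counts per WT chow library. Cfap44, a protein of motile cilia, was likewise at 0 in WT chow and at 6.3, 3.34 and 4.76 CPM in KO CDAHFD (at least 42.8-fold). Vsig8 (1 count over the 4 WT chow libraries against 1364 over the 3 KO CDAHFD libraries) rose 1235-fold (95% counting interval 221 to 48824). Sprr1a, a cornified envelope protein also induced in injured tissue, rose 506-fold (95% counting interval 90.5 to 20030.2). Aqp7, a channel for water and glycerol, rose 247-fold (95% counting interval 68 to 2043), Gldn 402-fold (95% counting interval 157 to 1478), and Eef1a2, the translation elongation factor of muscle and neurons, 323-fold (95% counting interval 57.7 to 12805). These intervals cover counting error only. Leaving out 1 library that held the few WT chow reads moved the log2 fold change of Vsig8 from 9.83 to 11.79 (without replicate 1), of Eef1a2 from 7.88 to 9.86 (replicate 1), of Gldn from 8.51 to 9.11 (replicate 1) and of Sprr1a from 8.55 to 10.53 (replicate 4), and all stayed called. Cyp2a4, a female-predominant steroid hydroxylase, stood at 0.0388, 0.252, 0.367 and 0.321 CPM in WT chow against 28.1, 33.8 and 147 CPM in KO CDAHFD; its groups did not overlap, and its near-identical paralogs can share its reads. Its log2 fold change was 8.12, and 6.95 without KO CDAHFD replicate 3.

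The largest falls were in genes that male mouse livers express at high level. Hsd3b5 (ENSMUSG00000038092, chromosome 3 from 98618634 to 98630252), a male-specific steroid reductase, was at 478, 554, 576 and 741 CPM in WT chow against 2.59, 4.22 and 0.238 CPM in KO CDAHFD, a fall of 251-fold (log2 -7.97, SE 0.71, adjusted p = 1.43e-06) that was -8.70 on the log2 scale without KO CDAHFD replicate 2. Mup7, one of the major urinary proteins that male livers secrete as pheromone carriers, was at 3042, 3128, 2804 and 5176 CPM in WT chow against 18.2, 23.5 and 2.78 CPM in KO CDAHFD. No KO CDAHFD library came near the WT chow range in either gene. Mup15, Mup16, Mup17, Mup11 and Mup1 fell, with log2 fold changes between -9.66 and -6.78, and reads of these near-identical genes may be split among them. Mup15 was at -9.06 without WT chow replicate 1. All 22 Mup genes together took 1.8% to 2.38% of counts in WT chow and 0.355% to 0.596% in KO CDAHFD. Moxd1 was at 5.67, 1.39, 4.4 and 125 CPM in WT chow against 0, 0 and 0.0714 CPM in KO CDAHFD, so the size of its fall rested on WT chow replicate 4, without which the log2 fold change was -7.06 (adjusted p = 9.42e-05), against -10.24 with it and -13.31 without KO CDAHFD replicate 3. Ces4a, a carboxylesterase, held 5 counts over the KO CDAHFD libraries and fell 189-fold (95% counting interval 80.8 to 584), with a log2 fold change of -7.45, or -8.16 without KO CDAHFD replicate 2. Pitx3 fell 199-fold (log2 -7.64, SE 1.36, adjusted p = 4.45e-04), but it overlaps Elovl3, and in libraries without strand the 2 cannot be told apart. Without WT chow replicate 1, KO CDAHFD replicate 1 or KO CDAHFD replicate 3 its log2 fold change was -6.46, -9.92 or -7.05.

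**Figure D2:**
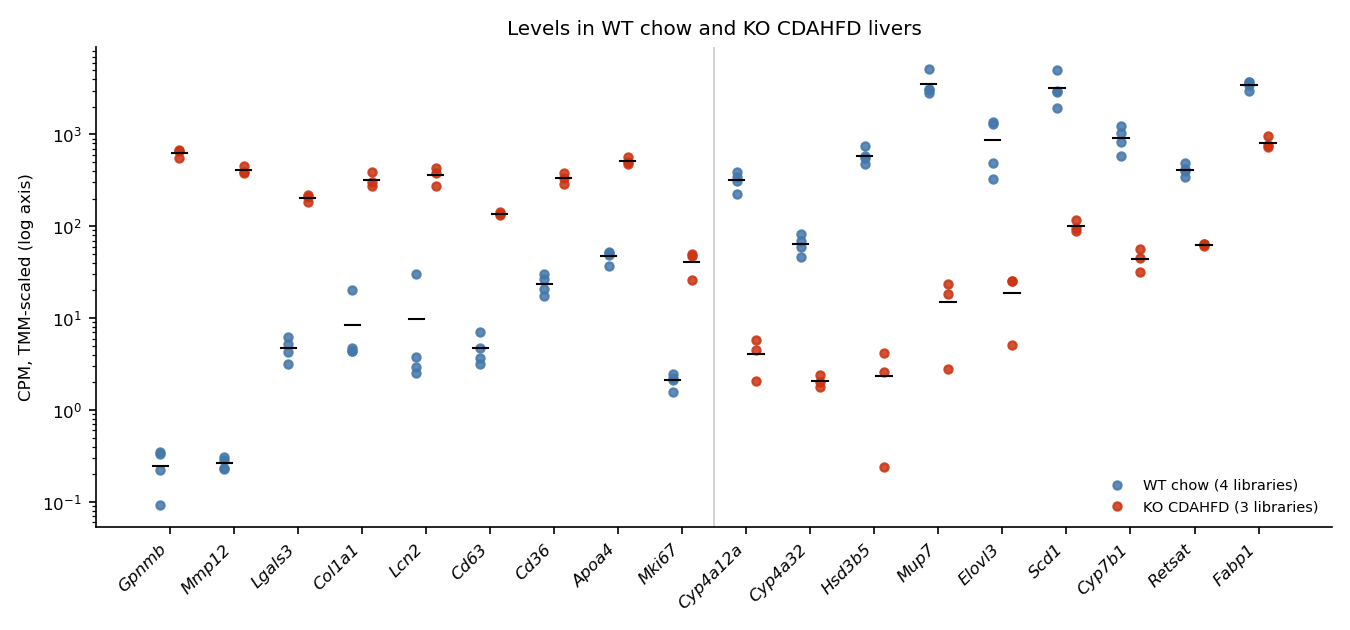
CPM (log scale) of 18 genes in each of the 4 WT chow and 3 KO CDAHFD libraries; each point is a library and the short lines are group means. The 9 genes on the left rose and the 9 on the right fell, and in none of them do the groups overlap. Some of the 18 were named on the condition that the groups do not overlap.

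The genes were then read by pathway. The 35 lists, which hold 810 different genes, are described by how many tested members passed the test in each direction, beside the 26.9% of all genes that were higher and the 25.4% that were lower, and by their median log2 fold change, beside -0.04 over all genes. A fold change is that of the fit, with its log2 value beside it. The marker sums of hepatocytes moved with the lists that fell, and those of macrophages, stellate cells and cholangiocytes with the lists that rose. Markers and lists share genes, among them Cps1, Apob, Cyp2e1, Col1a1, Col3a1, Itgax and Spp1, so part of this joint movement is built in. The median log2 fold change of the hepatocyte markers was -0.97. The part of these cells in the list changes was not tested. With library size as the only scaling every list median moved upward, as the median over all genes did. The library preparation kept no strand, and Plin4, Tm7sf2, Col4a1, Ccnd1, Cdc20 and Ddit3 overlap another counted gene, so their reads cannot be told apart from those of that gene.

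Fatty acid oxidation, the process PPARα is best known for, was lower in both organelles. In peroxisomes, which shorten very long chains, 18 of 26 members fell and 1 rose, with a median log2 fold change of -1.01. That median was -0.40 with library size as the only scaling. Hsd17b4, the bifunctional enzyme that hydrates and dehydrogenates the acyl chain, was at 511, 516, 618 and 575 CPM in WT chow against 204, 202 and 189.5 CPM in KO CDAHFD. Its groups did not overlap and it fell 2.8-fold (log2 -1.48, SE 0.10, adjusted p = 2.02e-07). Ech1, which handles unsaturated chains, fell 2.34-fold (log2 -1.23, SE 0.12, adjusted p = 2.52e-06). Ehhadh, the counterpart of Hsd17b4 for other chains, fell 1.59-fold (log2 -0.66, SE 0.14, adjusted p = 0.00129), but not with library size as the only scaling (log2 -0.06, adjusted p = 0.774) or with a clock score under 0 (log2 -0.38, adjusted p = 0.211). Pex11a, which divides peroxisomes, fell 2.07-fold (log2 -1.05, SE 0.18, adjusted p = 2.77e-04). The riser was Abcd2, a peroxisomal importer of fatty acyl-CoA, at 1.57 (adjusted p = 0.00852), a call that was lost without KO CDAHFD replicate 3 (log2 1.10, adjusted p = 0.0592).

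In mitochondria, 18 of 21 members fell and none rose (median -0.95, or -0.34 with library size as the only scaling). Acadvl, the dehydrogenase for very long chains, was at 268, 271, 321 and 318 CPM in WT chow against 82.8, 76.6 and 82.6 CPM in KO CDAHFD, a fall of 3.65-fold (log2 -1.87, SE 0.11, adjusted p = 4.90e-08). Slc25a20, the carnitine carrier that brings acylcarnitine into the matrix, was at 115, 122, 176 and 145 CPM in WT chow against 36.6, 42.4 and 40.9 CPM in KO CDAHFD, a fall of 3.5-fold (log2 -1.81, SE 0.15, adjusted p = 6.61e-07). In both genes each KO CDAHFD library was below each WT chow library. Eci1, an isomerase for unsaturated chains, fell 2.76-fold (log2 -1.46, SE 0.13, adjusted p = 1.42e-06). Hadha, the alpha subunit of the trifunctional protein, fell 1.91-fold (log2 -0.93, SE 0.12, adjusted p = 3.92e-05). Acadm, the medium-chain dehydrogenase, did not pass the test (-0.22, adjusted p = 0.13), passed as lower without WT chow replicate 1 (log2 -0.27, adjusted p = 0.0334) and as higher with library size as the only scaling (log2 0.39, adjusted p = 0.00475).

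Omega-hydroxylation by the Cyp4 enzymes, a route that oxidises fatty acids from the methyl end, held the largest falls of the PPARα-controlled lists. Of its members, 9 of 11 fell (median -1.49, or -0.88 with library size as the only scaling). Cyp4a12a, the male-specific arachidonic acid hydroxylase, was at 342, 226, 308 and 393 CPM in WT chow against 4.51, 5.75 and 2.07 CPM in KO CDAHFD. It is also a member of the male-biased list. Cyp4a32 was at 60.2, 69.8, 81.8 and 46 CPM in WT chow against 1.77, 2.03 and 2.38 CPM in KO CDAHFD. Both sets of libraries were far apart, with falls of 77.3-fold (log2 -6.27, SE 0.77, adjusted p = 2.07e-05) and 31.2-fold (log2 -4.97, SE 0.21, adjusted p = 6.95e-09). Cyp4a10 fell 5.08-fold (log2 -2.34, SE 0.50, adjusted p = 0.00165) with libraries that overlapped and a log2 fold change of -1.55 (adjusted p = 0.218) among the libraries with a clock score under 0, and Cyp4a14 did not pass the test (-1.41, adjusted p = 0.118). Cyp4a14 passed, lower, with the replicate block (log2 -1.72, adjusted p = 0.0102), without WT chow replicate 4 (log2 -1.76, adjusted p = 0.00799), with no filter (log2 -1.35, adjusted p = 0.0157) and with a clock score over 0 (log2 -2.49, adjusted p = 0.00337), but not without WT chow replicate 1 (log2 -0.41, adjusted p = 0.583) or with a clock score under 0 (log2 0.39, adjusted p = 0.781). Members of this family are close copies, and reads may be split among them.

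Other genes that PPARα is known to control went both ways, with 13 of 22 lower and 5 higher (median -0.81, or -0.19 with library size as the only scaling). Fabp1, the cytosolic fatty acid carrier of hepatocytes, was at 2942, 3459.6, 3758 and 3737 CPM in WT chow against 727, 952 and 761 CPM in KO CDAHFD, a fall of 4.27-fold (log2 -2.09, SE 0.15, adjusted p = 2.91e-07). Retsat, which saturates retinol, fell 6.55-fold (log2 -2.71, SE 0.13, adjusted p = 1.62e-08) from 414 ± 60.1 CPM (SD, n = 4) to 63.2 ± 1.94 CPM (SD, n = 3). Angptl4, a secreted inhibitor of lipoprotein lipase, fell 4.8-fold (log2 -2.26, SE 0.36, adjusted p = 2.01e-04), and Creb3l3, the fasting-induced factor CREBH, 2.7-fold (log2 -1.43, SE 0.13, adjusted p = 1.55e-06). Cd36, the fatty acid uptake receptor of macrophages and of steatotic hepatocytes, went the other way and stood at 26.4, 20.7, 29.9 and 17.5 CPM in WT chow against 333, 287 and 379 CPM in KO CDAHFD, a rise of 14.1-fold (log2 3.81, SE 0.21, adjusted p = 4.04e-08) with no overlap. Pdk4, the kinase that blocks pyruvate oxidation, rose 7.58-fold (log2 2.92, SE 0.58, adjusted p = 9.57e-04). Fgf21, a fasting hormone, rose 6.92-fold (log2 2.79, SE 0.59, adjusted p = 0.00156), but among the libraries with a clock score under 0 (2 WT chow and 1 KO CDAHFD) the rise was 0.61 (adjusted p = 0.0991).

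The sequences of these genes were read for the DR1 element, the motif PPARα and RXR bind, since the receptor acts through it. DR1 was taken as AGGTCANAGGTCA on either strand with at most 2 mismatches in the 12 fixed bases, in the 300 bases from 250 before to 50 after each start in RefSeq (GRCm38.p6). It lay in 4.4% of the 27025 genes with a window, in 1 of 20 peroxisomal genes, in 0 of 5 Cyp4 genes and in 3 of 19 other PPARα-controlled genes. The 4 matches are written on the gene's own strand, with the element in capitals and its first base given from the start:
Fabp1, 67 bases before the start: TGACCTATGGCCT
Acot4, 13 bases before the start: TGACCTTTGGCCG
Cd36, 63 bases before the start: TGGCCTCTGACTT
Creb3l3, 209 bases before the start: AGGGGAGAGGTCA
Fabp1 and Creb3l3 fell, Cd36 rose, and Acot4, a peroxisomal thioesterase named here because its window holds the element, had a log2 fold change of 0.38 (adjusted p = 0.283), which passed as higher without WT chow replicate 3 (log2 0.80, adjusted p = 0.00535), with library size as the only scaling (log2 1.0, adjusted p = 0.00904) and with a clock score over 0 (log2 0.73, adjusted p = 0.0274). The window of Cd36 (chr5:17835847-17836146, minus strand), the largest riser of the list, is shown whole, with the element in capitals:
Cd36: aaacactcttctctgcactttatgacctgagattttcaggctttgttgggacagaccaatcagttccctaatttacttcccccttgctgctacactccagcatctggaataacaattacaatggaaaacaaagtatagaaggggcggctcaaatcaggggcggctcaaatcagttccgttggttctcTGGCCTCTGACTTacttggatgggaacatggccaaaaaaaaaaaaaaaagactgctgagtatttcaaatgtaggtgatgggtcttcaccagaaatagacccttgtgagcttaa
A match is a description of letters and not a bound site, and elements outside these windows were not searched.

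Lipid synthesis was lower, and this included the enzymes that make monounsaturated and very long chains. In the list of lipogenesis, desaturation and elongation, 14 of 19 members fell and 1 rose (median -1.05). Scd1, the stearoyl-CoA desaturase, was at 1919, 2926, 5080.0 and 2934 CPM in WT chow against 89.7, 96.1 and 116 CPM in KO CDAHFD, a fall of 32-fold (log2 -5.00, SE 0.48, adjusted p = 2.55e-06). Elovl3, an elongase of very long chains that male livers express more, was at 1376, 1292, 325 and 489 CPM in WT chow against 25.1, 25.5 and 5.09 CPM in KO CDAHFD, a fall of 47-fold (log2 -5.55, SE 0.84, adjusted p = 1.23e-04). Neither gene's libraries overlapped. Thrsp, a lipogenic regulator that follows thyroid hormone and carbohydrate, fell 8.31-fold (log2 -3.05, SE 0.21, adjusted p = 1.61e-07), Elovl6 2.15-fold (log2 -1.11, SE 0.21, adjusted p = 8.55e-04), and Fasn, fatty acid synthase, 1.88-fold (log2 -0.91, SE 0.21, adjusted p = 0.00259). With library size as the only scaling, Elovl6 (log2 -0.48, adjusted p = 0.0658) and Fasn (log2 -0.29, adjusted p = 0.211) did not pass. Scd2, the desaturase isoform of tissues other than adult hepatocytes, was the riser at 4.98-fold (log2 2.32, SE 0.26, adjusted p = 9.64e-06).

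Of the triglyceride and lipid droplet genes, 13 of 19 fell and 3 rose (median -0.79). Dgat2, the last step of triglyceride synthesis, fell 2.09-fold (log2 -1.06, SE 0.14, adjusted p = 3.89e-05), and Hsd17b11, a droplet-associated dehydrogenase, 2.6-fold (log2 -1.38, SE 0.11, adjusted p = 4.93e-07). The 3 risers were droplet proteins: Cidec, which fuses droplets, rose 2.92-fold (log2 1.55, SE 0.30, adjusted p = 7.73e-04), Plin4 2.82-fold (log2 1.49, SE 0.25, adjusted p = 3.02e-04) and Plin3 1.63-fold (log2 0.70, SE 0.11, adjusted p = 1.74e-04). Other droplet proteins of the list fell, among them Plin5 (log2 -1.66, SE 0.21, adjusted p = 2.84e-05). Plin2 fell from 663 to 457 CPM (log2 -0.54, SE 0.20, adjusted p = 0.0396). Values of Plin5 and Plin2 under the alternatives are not given here. Choline, methionine and phosphatidylcholine genes gave 16 of 21 lower and 1 higher (median -0.60, or 0.00 with library size as the only scaling). Gnmt, which consumes S-adenosylmethionine, was at 1189, 2331, 2245 and 1999 CPM in WT chow against 519, 529.9 and 393 CPM in KO CDAHFD, and Ahcy, which clears S-adenosylhomocysteine, at 1348, 1936, 1877 and 1876 CPM in WT chow against 494, 503 and 524 CPM in KO CDAHFD. Both fell without overlap, 4.04-fold (log2 -2.01, SE 0.23, adjusted p = 1.22e-05) and 3.47-fold (log2 -1.80, SE 0.14, adjusted p = 4.51e-07). Pcyt1b, an isoform of the rate-limiting enzyme of phosphatidylcholine synthesis from choline, was the riser, from 0.191 ± 0.0576 CPM (SD, n = 4) to 2.13 ± 0.58 CPM (SD, n = 3).

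Lipoprotein assembly was lower apart from 2 members. Of 17 apolipoprotein and VLDL genes, 13 fell and 2 rose (median -1.06). Mttp, which loads triglyceride on apolipoprotein B, fell 2.45-fold (log2 -1.29, SE 0.10, adjusted p = 4.57e-07), and Apob, the structural protein of VLDL, 1.64-fold (log2 -0.71, SE 0.17, adjusted p = 0.00324), which library size as the only scaling put at -0.09 (adjusted p = 0.629). Apoa4, an apolipoprotein that rises with hepatic triglyceride, was at 52, 36.7, 51.3 and 48.1 CPM in WT chow against 497, 479 and 574 CPM in KO CDAHFD, a rise of 11-fold (log2 3.46, SE 0.14, adjusted p = 6.28e-09) with no overlap. Sterol synthesis moved little: 2 of 23 members rose, 6 fell and 15 did not pass the test (median -0.19, or 0.41 with library size as the only scaling). Tm7sf2, a sterol reductase, fell 3.49-fold (log2 -1.80, SE 0.18, adjusted p = 4.08e-06).

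Bile acid synthesis and transport was lower in 15 of 23 members and higher in 3 (median -1.15). Cyp7b1, the oxysterol hydroxylase of the acidic pathway, was at 1045, 819, 580.4 and 1224 CPM in WT chow against 45.3, 56.3 and 31.9 CPM in KO CDAHFD, a fall of 20.6-fold (log2 -4.36, SE 0.40, adjusted p = 1.97e-06). Cyp8b1, which makes cholic acid precursors, fell 2.78-fold (log2 -1.47, SE 0.18, adjusted p = 1.67e-05), and Cyp27a1, the mitochondrial sterol hydroxylase, 2.98-fold (log2 -1.58, SE 0.10, adjusted p = 8.11e-08). Cyp7a1, the rate-limiting enzyme of the classic pathway, did not pass the test (1.34, adjusted p = 0.0641). It passed, higher, with library size as the only scaling (log2 2.0, adjusted p = 0.0102), with no filter (log2 1.42, adjusted p = 0.00147), without WT chow replicate 4 (log2 1.69, adjusted p = 0.0434), without KO CDAHFD replicate 2 (log2 1.74, adjusted p = 0.0235) and with a clock score under 0 (log2 2.19, adjusted p = 0.00276), and was at log2 0.34, adjusted p = 0.617 without KO CDAHFD replicate 3. Slc10a1, the bile acid importer NTCP, fell 5.96-fold (log2 -2.58, SE 0.26, adjusted p = 3.79e-06), and Slco1a1, an organic anion importer that male livers express more, 8.41-fold (log2 -3.07, SE 0.21, adjusted p = 1.77e-07). Abcc4, which exports bile acids back to blood, rose 4.02-fold (log2 2.01, SE 0.27, adjusted p = 4.16e-05).

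Amino acid breakdown and the urea cycle fell in 31 of 35 members and rose in none (median -1.12). Cps1, the first step of the urea cycle, went from 5768 ± 1366 CPM (SD, n = 4) to 1834 ± 120.2 CPM (SD, n = 3), and Arg1, its last step, from 1555 ± 310.0 CPM (SD, n = 4) to 431 ± 29.7 CPM (SD, n = 3). Kmo, of the tryptophan route to NAD, fell 3.12-fold (log2 -1.64, SE 0.12, adjusted p = 2.67e-07). Respiratory complex I was lower by smaller steps: 36 of 37 subunit and assembly genes fell, with log2 fold changes from -0.99 to -0.30 and a median of -0.65. Under scaling by library size alone that median was -0.04, so these falls were of the size of the shift in scaling. Glycolysis, gluconeogenesis and glycogen genes divided, with 6 of 26 higher and 14 lower (median -0.39, or 0.22 with library size as the only scaling). Pck1, of gluconeogenesis, fell 4.9-fold (log2 -2.29, SE 0.40, adjusted p = 3.80e-04), and G6pc, which releases glucose, 6.89-fold (log2 -2.78, SE 0.62, adjusted p = 0.00225). Pkm, the pyruvate kinase of non-hepatocyte and dividing cells, was at 23.3, 18.4, 20.5 and 13.7 CPM in WT chow against 141, 131 and 137 CPM in KO CDAHFD, a rise of 7.19-fold (log2 2.85, SE 0.16, adjusted p = 3.76e-08), and Hk2 rose 4.87-fold (log2 2.28, SE 0.29, adjusted p = 3.28e-05).

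Drug- and steroid-metabolising P450 enzymes fell in 16 of 23 members and rose in 3 (median -0.95). Cyp2c29 was at 460.2, 479.8, 632 and 525 CPM in WT chow against 29.5, 38 and 37.4 CPM in KO CDAHFD, a fall of 15-fold (log2 -3.91, SE 0.20, adjusted p = 2.47e-08), and Cyp2f2, an enzyme of periportal hepatocytes, fell 5.44-fold (log2 -2.44, SE 0.17, adjusted p = 2.33e-07). Cyp3a11, the main enzyme of xenobiotic oxidation in mouse liver, was at 306, 302, 309 and 266 CPM in WT chow against 822, 1052 and 1164 CPM in KO CDAHFD, a rise of 3.42-fold (log2 1.78, SE 0.13, adjusted p = 3.89e-07) without overlap. Cyp1a2, of pericentral hepatocytes, did not pass the test (-0.28, adjusted p = 0.126), passed as lower without KO CDAHFD replicate 2 (log2 -0.41, adjusted p = 0.0441) and with a clock score under 0 (log2 -0.48, adjusted p = 0.0422), and passed as higher with library size as the only scaling (log2 0.33, adjusted p = 0.029).

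Male-biased transcripts fell in these male livers. All 16 male-biased genes fell, with log2 fold changes from -10.24 to -0.71 and a median of -4.68, and the groups did not overlap in any of them. Selenbp2 went from 2109.8 ± 694 CPM (SD, n = 4) to 248 ± 90.4 CPM (SD, n = 3). Of 14 tested female-biased genes, 9 rose and 1 fell (median 2.38, or 1.93 with the genes that had no reads in a group set at their bound). The 9 include Atp6v0d2, which is given below with the macrophage genes. Sult1e1, the oestrogen sulphotransferase, rose 56.3-fold (log2 5.82, SE 0.66, adjusted p = 1.07e-05), while Lifr, a cytokine receptor, fell 6.93-fold (log2 -2.79, SE 0.22, adjusted p = 5.52e-07). Growth hormone sets these patterns through STAT5, and in that axis 6 of 14 members fell and 1 rose: Ghr, its receptor, was at 821, 887, 896 and 1046 CPM in WT chow against 256, 265 and 248 CPM in KO CDAHFD. Ghr fell 3.56-fold (log2 -1.83, SE 0.12, adjusted p = 1.55e-07) without overlap, Stat5b 1.88-fold (log2 -0.91, SE 0.14, adjusted p = 1.57e-04) and Igf1 2.54-fold (log2 -1.35, SE 0.14, adjusted p = 4.89e-06). Stat5b did not pass with library size as the only scaling (log2 -0.31, adjusted p = 0.079). Igfbp3, a carrier of IGF-1, was the riser (0.71, adjusted p = 0.00113). The other 7 members of the axis did not pass the test. Among them, Socs2 (log2 -1.19, adjusted p = 0.055) and Cish (log2 -1.26, adjusted p = 0.268) had libraries that overlapped. Values of Socs2 and Cish under the alternatives are not given here.

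Hepatocyte transcription factors and nuclear receptors fell in 17 of 32 members and rose in 2 (median -0.79). Hnf4a fell 1.96-fold (log2 -0.97, SE 0.23, adjusted p = 0.00311) and Cebpa 1.89-fold (log2 -0.92, SE 0.25, adjusted p = 0.00831), and both set hepatocyte identity. Scaled by library size alone, the log2 fold changes were -0.35 and -0.30, with adjusted p-values of 0.143 and 0.269. Cebpa did not pass with a clock score over 0 either (log2 -0.34, adjusted p = 0.233). Esrrg, an orphan receptor of oxidative metabolism, was at 2.91, 3.93, 2.53 and 2.06 CPM in WT chow against 0.0485, 0.107 and 0.0476 CPM in KO CDAHFD. It fell 44.3-fold (95% counting interval 22.2 to 104) with no overlap. Proteins that hepatocytes secrete into plasma were lower in 21 of 33 members and higher in 4 (median -0.83). Alb went from 68664 ± 6771 CPM (SD, n = 4) to 35709 ± 5581 CPM (SD, n = 3), C8b, of the terminal complement complex, fell 4.12-fold (log2 -2.04, SE 0.14, adjusted p = 2.26e-07) and C9 2.8-fold (log2 -1.49, SE 0.18, adjusted p = 2.48e-05). Lcn2, an iron-binding protein of injured hepatocytes and neutrophils, was at 30, 3.75, 2.97 and 2.52 CPM in WT chow against 378, 432 and 275 CPM in KO CDAHFD, a rise of 37-fold (log2 5.21, SE 0.78, adjusted p = 1.12e-04) without overlap. Without WT chow replicate 1 it was larger (log2 6.89, adjusted p = 9.94e-08).

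Among the acute phase genes 1 library decided a value. Saa1, the main acute phase reactant of mouse liver, was at 668, 52.9, 43.9 and 54.5 CPM in WT chow against 204, 199 and 143 CPM in KO CDAHFD. WT chow replicate 1 held the highest value of all 7, and the log2 fold change was -0.17 (adjusted p = 0.875) with it and 1.88 (adjusted p = 1.20e-05) without it. Hp, haptoglobin, did not pass the test (0.10, adjusted p = 0.84).

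Macrophage genes rose almost throughout. Of 25 genes of lipid-associated macrophages, 23 rose and 1 fell (median 2.55). Trem2, the lipid receptor that defines these cells, was at 0.854, 0.346, 0.567 and 0.321 CPM in WT chow against 71.4, 68.3 and 61.9 CPM in KO CDAHFD, a rise of 128-fold (log2 7.0, SE 0.22, adjusted p = 1.47e-09). Itgax, the integrin CD11c, was at 1.2, 0.913, 1.27 and 0.367 CPM in WT chow against 59.9, 54.4 and 76.5 CPM in KO CDAHFD, a rise of 66.1-fold (log2 6.05, SE 0.26, adjusted p = 6.77e-09). The groups were far apart in both. Spp1, osteopontin, which macrophages and cholangiocytes make, rose 14.4-fold (log2 3.85, SE 0.26, adjusted p = 1.49e-07), Lpl, lipoprotein lipase, 18.8-fold (log2 4.23, SE 0.28, adjusted p = 1.35e-07), and Atp6v0d2, a subunit of the lysosomal proton pump, 63.9-fold (log2 6.00, SE 0.38, adjusted p = 9.77e-08), or 6.74 on the log2 scale without WT chow replicate 2. Beside these, the resident Kupffer cell markers summed to 547 to 839 CPM in WT chow and 678 to 1108 in KO CDAHFD, which overlap, with 4 of 10 higher and 1 lower.

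Chemokines and their receptors rose in 21 of 28 tested members and fell in 2 (median 2.46). Ccr2, the receptor of inflammatory monocytes, rose 14.6-fold (log2 3.87, SE 0.38, adjusted p = 2.93e-06) and its ligand Ccl2 10.9-fold (log2 3.45, SE 0.43, adjusted p = 2.28e-05). Without WT chow replicate 1 these log2 fold changes were 4.46 and 4.28. Cxcr4 rose 18.5-fold (log2 4.21, SE 0.20, adjusted p = 1.24e-08), and Cxcl13, a chemokine for B cells, fell 20.8-fold (log2 -4.38, SE 0.49, adjusted p = 9.30e-06). Toll-like receptor, TNF and NF-kB genes rose in 23 of 29 and fell in 1 (median 1.82): Cd14, the co-receptor for endotoxin, rose 9.42-fold (log2 3.24, SE 0.27, adjusted p = 7.06e-07), Tnf from 0.271 ± 0.123 CPM (SD, n = 4) to 3.36 ± 0.332 CPM (SD, n = 3), and the adhesion molecule Vcam1 6.01-fold (log2 2.59, SE 0.17, adjusted p = 1.35e-07). Interferon-induced genes were closer to the background, with 15 of 30 higher and 4 lower (median 0.51). Oas1a rose 4.21-fold (log2 2.07, SE 0.22, adjusted p = 5.39e-06) and Iigp1 fell 2.37-fold (log2 -1.24, SE 0.12, adjusted p = 3.44e-06). Of 15 antigen presentation genes 9 rose and none fell, among them Cd74, the class II invariant chain, at 3.67-fold (log2 1.88, SE 0.26, adjusted p = 6.67e-05), and Ctss, the protease that trims it, at 10.3-fold (log2 3.36, SE 0.20, adjusted p = 6.28e-08). In the inflammasome list 11 of 18 rose and 3 fell (median 1.14): Nlrp3 rose 2.23-fold (log2 1.15, SE 0.20, adjusted p = 4.18e-04), Casp1 3.43-fold (log2 1.78, SE 0.19, adjusted p = 5.70e-06) and Il1rn, the antagonist of IL-1, 17.8-fold (log2 4.15, SE 0.27, adjusted p = 1.02e-07), while Nlrp6, a sensor that hepatocytes express, fell 2.36-fold (log2 -1.24, SE 0.15, adjusted p = 1.47e-05). Nlrp3 did not pass with a clock score under 0 (log2 1.20, adjusted p = 0.0519). Markers of neutrophils summed to 3.05 to 14.8 and 24.1 to 28.9 CPM, and those of T and NK cells to 6.88 to 10.6 and 9.79 to 12.9 CPM, which overlap.

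All 29 collagens and matrix genes passed the test, 26 higher and 3 lower (median 2.97). Col3a1 was at 61, 21.9, 18.6 and 21 CPM in WT chow against 612, 643 and 930.3 CPM in KO CDAHFD, a rise of 23.8-fold (log2 4.57, SE 0.38, adjusted p = 7.13e-07), and Col1a2 rose 21.1-fold (log2 4.40, SE 0.34, adjusted p = 4.80e-07). Without WT chow replicate 1 the log2 fold changes were 5.19 and 4.95. The basement membrane chain Col4a1 rose 5.39-fold (log2 2.43, SE 0.19, adjusted p = 4.38e-07). Col18a1, which hepatocytes express, fell 1.88-fold (log2 -0.91, SE 0.13, adjusted p = 9.60e-05). Matrix proteases, their inhibitors and crosslinkers rose in 26 of 28 members (median 2.96). Timp1, the inhibitor of matrix metalloproteinases, held 9 counts over the WT chow libraries and rose 128-fold (95% counting interval 67.2 to 281), with a log2 fold change of 6.94, or 7.64 without WT chow replicate 3. Mmp2, of stellate cells, rose 11.2-fold (log2 3.48, SE 0.20, adjusted p = 5.30e-08), Mmp13, the interstitial collagenase, 43.4-fold (log2 5.44, SE 0.48, adjusted p = 1.27e-06), and Loxl2, which crosslinks collagen, 6.23-fold (log2 2.64, SE 0.21, adjusted p = 5.52e-07). Mmp13 was at log2 7.28, adjusted p = 8.50e-09 without WT chow replicate 1. In the TGF-β and stellate cell list 18 of 24 rose and 1 fell (median 1.41): Tgfb1 rose 3.03-fold (log2 1.60, SE 0.20, adjusted p = 2.85e-05), Tgfb2 9.89-fold (log2 3.31, SE 0.30, adjusted p = 1.83e-06), Pdgfrb, the receptor of activated stellate cells, 5.09-fold (log2 2.35, SE 0.15, adjusted p = 1.23e-07), and Vim, vimentin, 8.94-fold (log2 3.16, SE 0.26, adjusted p = 7.80e-07). Acta2, smooth muscle actin, was at 31.9, 1.48, 1.27 and 1.33 CPM in WT chow against 7.18, 11 and 21.1 CPM in KO CDAHFD. WT chow replicate 1 held the highest value of all 7, and the log2 fold change was 0.55 (adjusted p = 0.652) with it and 3.31 (adjusted p = 1.08e-04) without it.

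Cell division genes rose. Of 40 replication and mitosis genes 37 rose and 2 fell (median 2.68). Mki67, the proliferation antigen Ki-67, was at 2.25, 1.57, 2.47 and 2.11 CPM in WT chow against 46.9, 50.2 and 25.7 CPM in KO CDAHFD, a rise of 19.5-fold (log2 4.29, SE 0.24, adjusted p = 3.84e-08), and Ccnb1, the mitotic cyclin, was at 0.544, 0.157, 0.433 and 0.321 CPM in WT chow against 18.3, 15.9 and 5.73 CPM in KO CDAHFD, a rise of 36.7-fold (log2 5.20, SE 0.48, adjusted p = 1.95e-06). Every KO CDAHFD library was above every WT chow library in both. Top2a rose 11.2-fold (log2 3.48, SE 0.27, adjusted p = 4.55e-07), Mcm5, a subunit of the replicative helicase, 5.39-fold (log2 2.43, SE 0.20, adjusted p = 7.50e-07), and Ccnd1, the G1 cyclin, 11-fold (log2 3.46, SE 0.41, adjusted p = 1.46e-05). E2f8, a repressor that accompanies polyploidy in hepatocytes, fell 3.04-fold (log2 -1.61, SE 0.40, adjusted p = 0.00465), but the overlapping Gm2788 can share its reads, and among libraries with a clock score over 0 it did not pass (log2 -1.16, adjusted p = 0.114). Of the 32 members with a RefSeq promoter window, 25 (78.1%) held CCAAT on either strand and 16 (50%) held TTTGAA, against 41.1% and 20.2% of all 27025 genes, and none held DR1. Both letter strings belong to the paired elements of genes that peak in mitosis (CCAAT, bound by NF-Y, and the CHR, TTTGAA). The window of Cdc20, the activator of the anaphase-promoting complex and the member with the largest rise (log2 5.41, or 6.26 without WT chow replicate 3), is shown with these letters in capitals (chr4:118437294-118437593, minus strand):
Cdc20: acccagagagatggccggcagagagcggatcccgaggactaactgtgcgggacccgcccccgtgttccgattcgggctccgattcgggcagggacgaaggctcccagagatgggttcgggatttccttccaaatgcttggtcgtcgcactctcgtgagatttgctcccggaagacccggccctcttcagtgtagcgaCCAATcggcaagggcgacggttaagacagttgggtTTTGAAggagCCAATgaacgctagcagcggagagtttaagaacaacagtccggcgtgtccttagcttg

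Genes of the p53 and NRF2 lists mostly rose beside cell division, while the other stress and iron lists were mixed. Of 21 p53 targets and cell cycle inhibitors 15 rose and 2 fell (median 1.14). Phlda3 rose 15.4-fold (log2 3.95, SE 0.23, adjusted p = 5.30e-08), and Eda2r and Tnfrsf10b, members of the TNF receptor family, 9.5-fold (log2 3.25, SE 0.33, adjusted p = 4.39e-06) and 8.86-fold (log2 3.15, SE 0.22, adjusted p = 2.36e-07). Cdkn1a, the cell cycle inhibitor p21, rose 5.02-fold (log2 2.33, SE 0.69, adjusted p = 0.0125) with overlapping libraries, and was at log2 3.59, adjusted p = 1.24e-04 without WT chow replicate 1. NRF2 targets and glutathione genes rose in 13 of 22 and fell in 3 (median 1.11): Nqo1 rose 5.9-fold (log2 2.56, SE 0.22, adjusted p = 8.69e-07), Gsta1 37.2-fold (log2 5.22, SE 0.25, adjusted p = 1.66e-08) and Hmox1 4.61-fold (log2 2.20, SE 0.20, adjusted p = 1.86e-06). Slc7a11, the cystine importer, held 5 counts over the WT chow libraries and rose 166-fold (95% counting interval 70.9 to 513). Gstp1, a transferase that male livers express more, fell from 3066 ± 379 CPM (SD, n = 4) to 503 ± 15.4 CPM (SD, n = 3). The unfolded protein and integrated stress response list was mixed, with 10 of 23 higher and 4 lower (median -0.05, or 0.55 with library size as the only scaling): Atf3, an early stress factor, rose 35-fold (log2 5.13, SE 0.33, adjusted p = 1.15e-07), Ddit3 (CHOP) 3.57-fold (log2 1.84, SE 0.31, adjusted p = 3.20e-04), Asns 6.47-fold (log2 2.69, SE 0.33, adjusted p = 2.08e-05), and Gdf15 4.69-fold (log2 2.23, SE 0.44, adjusted p = 9.54e-04). Ddit3 did not pass with a clock score under 0 (log2 0.60, adjusted p = 0.0639). Of 20 ferroptosis and iron genes 6 rose and 5 fell (median 0.13). These shares are near the 26.9% higher and 25.4% lower of all genes, so no shift of the list is read from them. Within it, Gpx4, which reduces lipid peroxides, rose 1.58-fold (log2 0.66, SE 0.12, adjusted p = 4.84e-04), and Hamp, hepcidin, fell 2.5-fold (log2 -1.32, SE 0.24, adjusted p = 5.45e-04).

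Fetal, ductal and cytoskeletal genes rose as well. In the oncofetal list 13 of 18 rose and none fell (median 2.39). H19, a fetal non-coding RNA, was at 0.116, 0, 0.0667 and 0.0459 CPM in WT chow against 22.5, 14 and 23.7 CPM in KO CDAHFD and rose 369-fold (95% counting interval 169.5 to 1008), with a log2 fold change of 8.43, or 9.04 without WT chow replicate 1. Afp, alpha-fetoprotein, rose 4.16-fold (log2 2.06, SE 0.25, adjusted p = 1.90e-05) and Tspan8 22.2-fold (log2 4.47, SE 0.39, adjusted p = 1.07e-06). Annexins, S100 proteins and keratins rose in 20 of 21 tested members (median 2.23). Anxa2 was at 14.1, 11.1, 11.9 and 6.93 CPM in WT chow against 232, 254 and 197 CPM in KO CDAHFD, a rise of 20.6-fold (log2 4.37, SE 0.21, adjusted p = 1.32e-08), and S100a11 rose 12.8-fold (log2 3.68, SE 0.19, adjusted p = 2.58e-08). Of the 12 cholangiocyte markers, 11 rose and none fell.

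The combined group was next set beside each single-factor group. Few genes separated it from WT CDAHFD: 15 genes (0.0864% of those tested) were higher and 47 (0.271%) were lower in KO CDAHFD than in WT CDAHFD, and 1523 genes had an unadjusted p under 0.05. DESeq2 called 245 (114 higher, 131 lower), and leaving out any 1 of the 6 libraries left 26 to 39 calls. Most of the list members among the 62 were fatty acid genes: 4 of 26 peroxisomal, 6 of 21 mitochondrial, 3 of 11 Cyp4, 3 of 22 other PPARα-controlled and 3 of 19 triglyceride and droplet members were lower, and of these lists none held a gene that was higher. Cyp4a32 was at 19.8, 21.5 and 18.2 CPM in WT CDAHFD, a log2 difference of -3.26 (SE 0.21, adjusted p = 1.73e-05). Acadvl was at 167, 155 and 177 CPM there (log2 -1.04, SE 0.11, adjusted p = 8.69e-04). Hsd17b11 was at 186, 179 and 177 CPM (log2 -1.14, SE 0.11, adjusted p = 8.07e-04). The KO CDAHFD libraries given above were lower than every WT CDAHFD library in Cyp4a32 and Acadvl.

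Vnn1, a pantetheinase under PPARα control, was at 31.4, 21.6, 28.7 and 12.5 CPM in WT chow, 87.9, 84.4 and 68.5 CPM in WT CDAHFD, 5.49 and 2.81 CPM in KO chow and 10.8, 13.4 and 13.1 CPM in KO CDAHFD. It was higher on CDAHFD than on chow in the WT libraries and lower in KO CDAHFD than in WT CDAHFD (log2 -2.69, SE 0.31, adjusted p = 0.00142). Against WT chow it was lower too (-0.92, adjusted p = 0.0143), with libraries that overlapped, but not with library size as the only scaling (log2 -0.33, adjusted p = 0.353), without KO CDAHFD replicate 1 (log2 -0.83, adjusted p = 0.0587) or with a clock score under 0 (log2 -0.59, adjusted p = 0.336). Slc25a20, Hsd17b4, Retsat, Ech1, Eci1 and Ehhadh were also lower than in WT CDAHFD, with log2 differences between -1.16 and -0.66. Ly6d, a surface protein of progenitor cells, was lower (log2 -1.68, SE 0.16, adjusted p = 8.07e-04), with 18.4, 19.6 and 22.5 CPM in KO CDAHFD and 66.6, 70 and 57.4 CPM in WT CDAHFD, though both were far above WT chow. Esrrg was lower as well (log2 -3.71, SE 0.56, adjusted p = 0.0118), and so was Rarres1 (log2 -1.62, SE 0.16, adjusted p = 8.69e-04). On the higher side, Gldn was at 2.19, 2.64 and 1.27 CPM in WT CDAHFD and 10.5, 9.33 and 23.7 CPM in KO CDAHFD (log2 2.83, SE 0.38, adjusted p = 0.0048). Mmd2 (log2 2.20, SE 0.28, adjusted p = 0.004), Klhl13 (log2 1.11, SE 0.14, adjusted p = 0.004), Lrtm2 (log2 2.79, SE 0.36, adjusted p = 0.00409) and Cyp2a4 (log2 3.55, SE 0.65, adjusted p = 0.0443) were higher too.

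Against KO chow, which has 2 libraries, 652 genes (3.76%) were higher and 423 (2.44%) lower in KO CDAHFD. The 1075 calls became 233 or 300 without KO chow replicate 1 or 2, and 459 or 505 without KO CDAHFD replicate 1 or 3. With library size as the only scaling 1245 genes were higher and 138 lower. The lipid-associated macrophage list held 13 of 25 members that were higher and none that was lower, the cholangiocyte markers 8 of 12, and the matrix protease list 6 of 28. Gpnmb was at 75.6 and 73.2 CPM in KO chow, a log2 difference of 3.08 (SE 0.23, adjusted p = 2.84e-05). Lower than KO chow were 10 of 35 amino acid genes, 10 of 22 NRF2 targets, 6 of 21 mitochondrial and 4 of 26 peroxisomal oxidation genes, with Cyp4a32 at -2.61 (SE 0.22, adjusted p = 7.53e-05) and Cyp2c29 at -2.32 (SE 0.20, adjusted p = 1.07e-04). Mbl2, a secreted lectin, was lower (log2 -1.75, SE 0.17, adjusted p = 1.61e-04), and Syngr1, a vesicle protein, was higher (log2 3.09, SE 0.22, adjusted p = 2.37e-05).

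Glul and Cyp2c50 were lowest in KO chow. Glul, glutamine synthetase, which marks the hepatocytes around the central vein, was at 1150.4, 1061, 1206 and 1114 CPM in WT chow, 174 and 199 CPM in KO chow, 1086, 1066 and 1144 CPM in WT CDAHFD and 1120.5, 1033 and 1205 CPM in KO CDAHFD. Both KO chow libraries were below all others, and KO CDAHFD was above KO chow by a log2 difference of 2.59 (SE 0.14, adjusted p = 1.99e-06). Cyp2c50 was at 456, 752, 687 and 757 CPM in WT chow, 35.5 and 50.5 CPM in KO chow, 224, 207 and 232 CPM in WT CDAHFD and 352, 439.5 and 281 CPM in KO CDAHFD, a log2 difference of 3.05 (SE 0.27, adjusted p = 1.07e-04) between KO CDAHFD and KO chow. Cyp1a2 was at 86 and 111 CPM in KO chow and at 425, 503 and 354 CPM in KO CDAHFD (log2 2.11, SE 0.19, adjusted p = 1.07e-04).

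**Figure D3:**
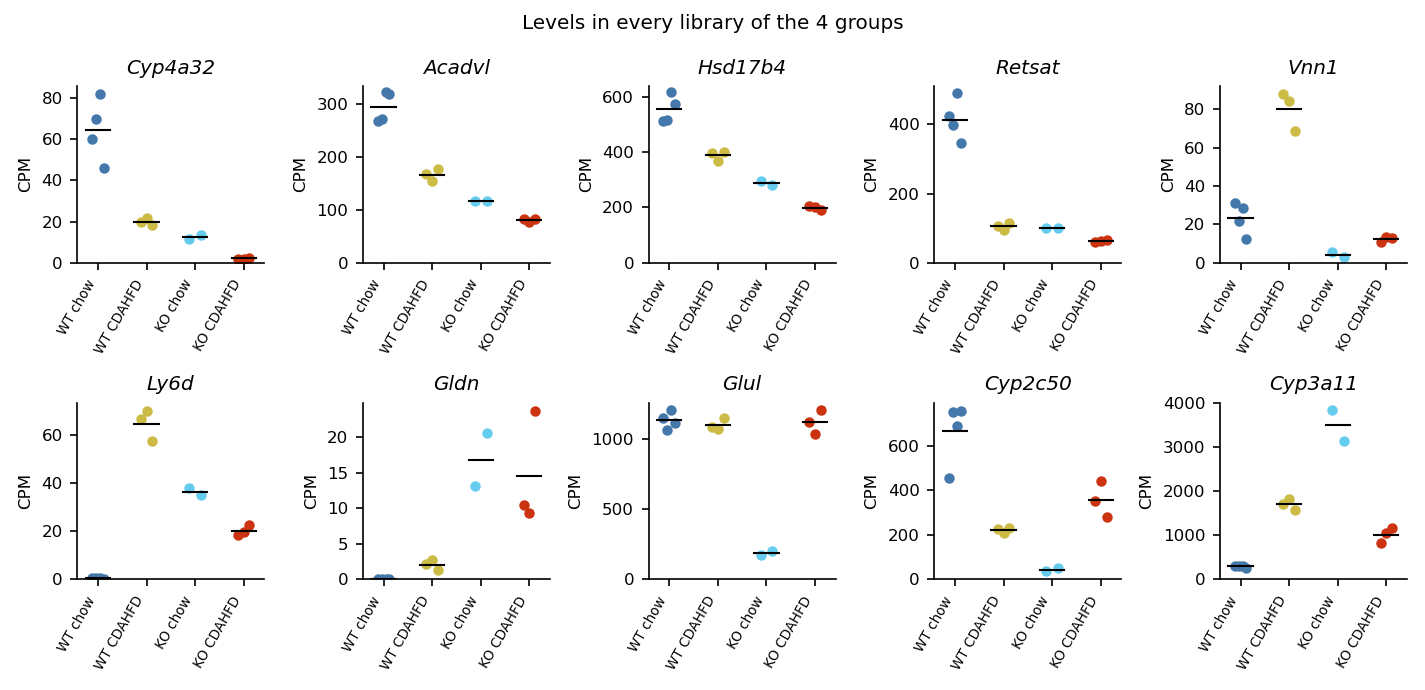
CPM (linear axis from 0) of 10 genes in every library of the 4 groups; each point is a library and the short lines are group means. Cyp4a32, Acadvl and Hsd17b4 are lowest in KO CDAHFD, Glul and Cyp2c50 are lowest in KO chow, and Gldn is higher in both KO groups than in WT CDAHFD.

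The interaction asked whether the combined change equals the sum, on the log2 scale, of the changes in KO chow and in WT CDAHFD. It passed the threshold for 4011 genes (23.1%), 1498 with a combined change above the sum and 2513 below it. Scaled by library size alone, 676 were above and 4268 below. For Gpnmb the log2 fold changes against the shared WT chow libraries were 8.17 for KO chow, 11.43 for WT CDAHFD and 11.25 for the combined group (interaction -8.34, SE 0.32, adjusted p = 1.28e-08). Mki67 gave 4.39, 4.40 and 4.29 (interaction -4.51, SE 0.33, adjusted p = 2.96e-06), and Slc10a1 -2.51, -2.89 and -2.58 (interaction 2.83, SE 0.38, adjusted p = 2.14e-04). In these 3 genes the combined change was about the size of the larger single change and not of their sum. In the oxidation genes, Hsd17b4 gave -0.94, -0.51 and -1.48, with an interaction of -0.03 (adjusted p = 0.928), and Slc25a20 gave -1.17, -0.64 and -1.81 (interaction 0.01, SE 0.22, adjusted p = 0.98). For these the combined change did not differ from the sum beyond its error. Cyp3a11 gave 3.56, 2.52 and 1.78 (interaction -4.31, SE 0.21, adjusted p = 1.58e-07), a combined rise smaller in value than either single rise. Compared directly, KO CDAHFD was below KO chow (log2 -1.79, SE 0.16, adjusted p = 1.07e-04). Its difference from WT CDAHFD did not pass (log2 -0.75, SE 0.14, adjusted p = 0.0528).

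The list medians of the 3 groups were set side by side; the comparisons share the WT chow libraries. In the order KO chow, WT CDAHFD, combined, median log2 fold changes were -0.78, -0.59 and -1.01 for peroxisomal oxidation, -0.56, -0.64 and -0.95 for mitochondrial oxidation, and -3.30, -3.42 and -4.68 for male-biased genes. For replication and mitosis they were 3.51, 3.01 and 2.68, for lipid-associated macrophages 1.87, 2.58 and 2.55, and for collagens 2.16, 2.30 and 2.97. The combined median was the lowest of the 3 for the oxidation and male-biased lists, the highest for collagens, and the lowest of the 3 rises for mitosis. Direct comparisons separated few of these genes. Against WT CDAHFD no collagen or mitosis member was called, and 1 of 16 male-biased members was lower (median -0.48). Against KO chow 5 of 29 collagen members were higher, no mitosis member was called, and 3 male-biased members were lower and 1 higher.

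**Figure D4:**
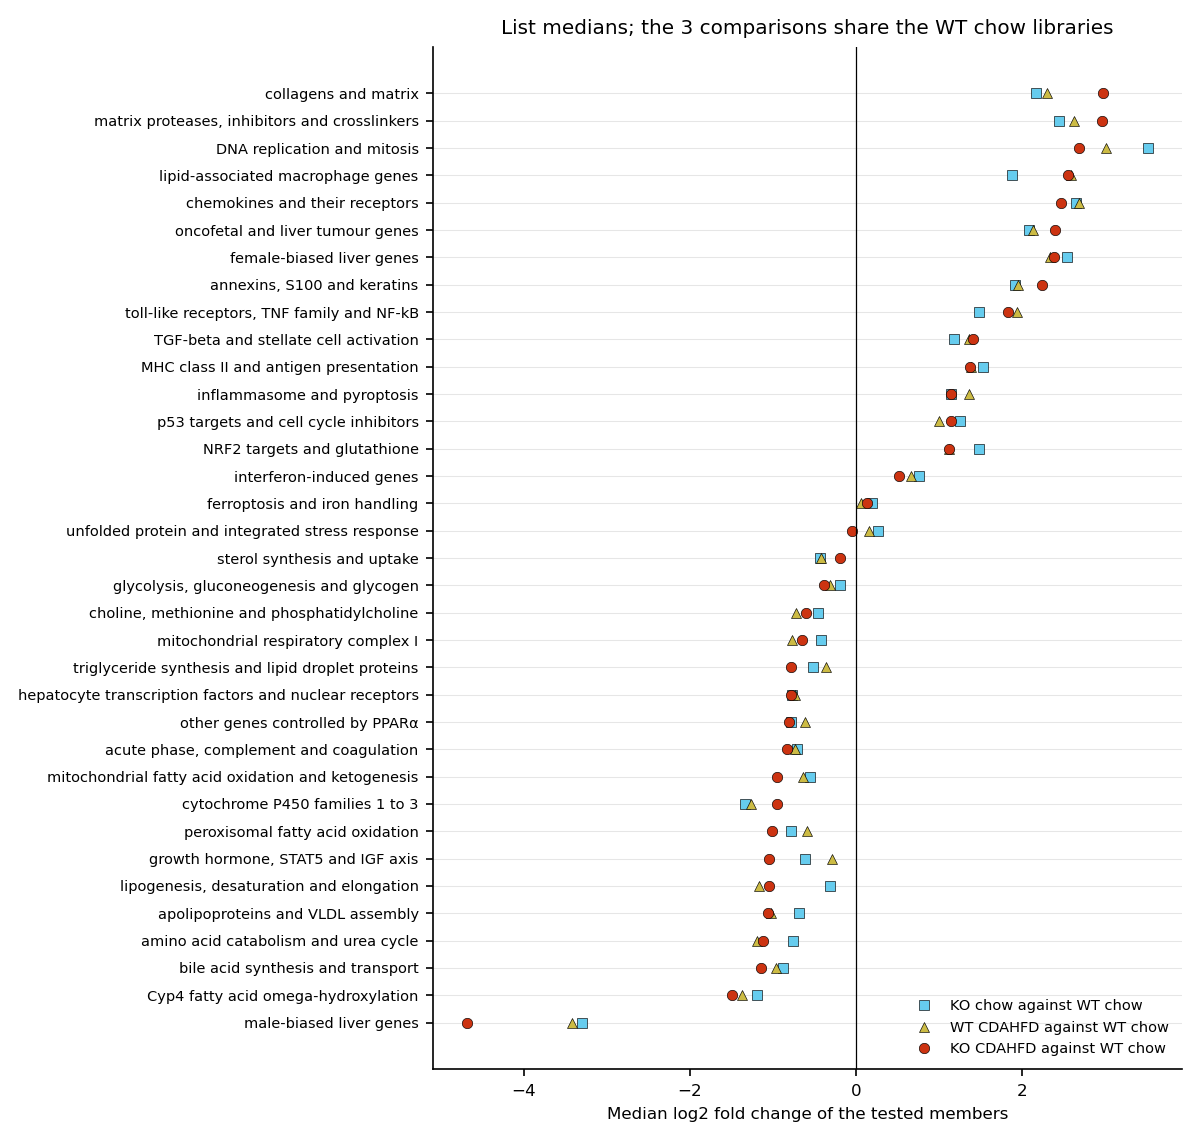
Median log2 fold change over the tested members of each pathway list against WT chow, for each of the other 3 groups. The 3 comparisons share the WT chow libraries; the 3 medians lie on the same side of 0 in most lists, with the male-biased list farthest below 0.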

How the data were processed

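Bulk RNA-seq of 12 livers was used as deposited: per the labels, libraries were poly-A selected and non-directional, and reads were checked with FastQC 0.11.5 and aligned to GRCm38 with STAR 2.7.3a. The counting program and annotation release are not given in the sources used here. The table deposited by the authors holds whole-number counts per gene, not normalized, and 52081 of its identifiers (94.08%) matched GENCODE M21, which gave symbols and positions.

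Counts were scaled by TMM, filtered with filterByExpr and tested with the quasi-likelihood test of edgeR 4.0.16 (R 4.3.3), with 1 mean per group over the 12 libraries and Benjamini-Hochberg adjustment over 17358 genes. In counts simulated for the main comparison, over 16947 genes, the test called 194 of 200 genes changed 4-fold and 12 others. Only those 200 well-counted genes differed between groups, as many up as down, with noise drawn from the fitted dispersions. In the data far more genes were called and rises were larger than falls, so the simulated counts do not measure the error of this comparison. CPM used TMM-scaled library sizes. Named genes were Ppara, the 10 largest rises and falls (mean of at least 50 counts, groups without overlap), the 6 largest of each where the higher group averaged 100 CPM or more, the 4 of smallest p per direction against each single-factor group, and in each list its key genes with the called riser and faller of smallest p; other names were chosen after values were seen, and some genes that this rule names are not reported here. Members and lists were chosen with earlier results of these data known. Alternatives were DESeq2 1.42.0, other scalings, no filter, a replicate term, a clock term, the 7 libraries alone and leaving out each library. A gene with no reads in a group was bounded by 3 counts per library.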

Additional observations from a re-analysis of the deposited data

Results flagged for a closer look

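In 16 of 171 genes named above, 1 WT chow library lay far from the other 3 by Dixon's 95% criterion. Chance alone gives this in about 1 of 20 groups of 4. Replicate 1 was the highest in 9 of them. It held 20.3 CPM for Col1a1 (median of the 4 libraries 4.58), 26.7 for Col1a2 (10.5), 61 for Col3a1 (21.5), 31.9 for Acta2 (1.4), 0.582 for Mmp13 (0.0544), 668 for Saa1 (53.7) and 30 for Lcn2 (3.36), which are matrix and acute phase genes. Its values of 0.0388 CPM for Vsig8 and for Eef1a2 were each 1 read, with no read in the others. It was the lowest for Ahcy at 1348 CPM (median 1877).

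Replicate 4 was the highest for Mup7 at 5176 CPM (median 3085), for Moxd1 at 125 (5.03) and for Sprr1a at 0.0459, again 1 read, and the lowest for Cyp3a11 at 266 (304). Replicate 3 was the lowest for Selenbp2 at 1073 CPM (2418). Replicate 2 was the lowest for E2f8 at 6.3 CPM (15.6).

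The change with diet differed between genotypes in 122 of the 171 genes, by the interaction term of edgeR's quasi-likelihood test, with 38 values above 0 and 84 below. Over all genes tested the share was 23.1%, and most of the 171 were named for their change against the same WT chow libraries, so nothing is read from the difference. Of the 17 genes set beside the single-factor groups, 11 passed. The log2 interaction was below 0 for Gpnmb (-8.34), Ly6d (-8.05), Cyp2a4 (-6.00), Gldn (-5.90), Mki67 (-4.51), Cyp3a11 (-4.31) and Cyp4a32 (-0.91), where KO CDAHFD lay below the sum of the single changes. It was above 0 for Cyp2c50 (4.64), Slc10a1 (2.83), Glul (2.63) and Cyp1a2 (2.53). Their adjusted p-values ranged from 8.64e-09 to 0.0297, the highest being that of Cyp4a32.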

How the results depend on the processing

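Of 171 genes named, 146 kept their direction and their side of the threshold in KO CDAHFD against WT chow under every alternative that gave an adjusted p-value. DESeq2 gave none for a few of the 171, Moxd1 among them. Ppara stayed past the threshold in all of them, with log2 fold changes from -2.57 to -1.58. The calls of that comparison stayed within 1.5 times of 9091, from 6549 (libraries with a clock score under 0) to 10870 (library size only), and from 7919 to 9023 when 1 library was left out. The comparisons with WT CDAHFD and KO chow moved more. The 62 genes called against WT CDAHFD became 245 with DESeq2, 215 with no filter on low counts, 172 with the clock score as a covariate, 113 among libraries with a clock score over 0, and 26 to 39 without 1 library. The 1075 called against KO chow became 1904 with DESeq2, 640 with a replicate block, 600 among libraries with a clock score over 0, and 233 to 873 without 1 library. Where 1 KO chow library was left out, the lone library was assumed to vary like the other groups. The 4011 interaction calls ranged from 2828 to 4944. Apart from the fewer libraries entering a fit, the cause of these moves was not tested. The 2 alternatives by clock score were chosen after seeing the data.

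The replicate numbers did not pair the samples: deviations of same-numbered WT chow and KO CDAHFD libraries correlated at -0.01, 0.148 and 0.119. With the replicate block 8044 genes were called against WT chow, 59 against WT CDAHFD, 640 against KO chow and 3137 for the interaction.

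Several values without a call changed sign, and some then passed as called. Saa1 went from -0.17 to 0.37 with library size only, 0.28 with the replicate block, 0.84 with the clock covariate, 1.62 among libraries with a clock score under 0, and -0.48 to 1.88 without 1 library. Library size only gave 0.39 for Acadm (adjusted p = 0.00475), 0.33 for Cyp1a2 (adjusted p = 0.029) and 0.60 for Glul (adjusted p = 4.04e-04), each called higher. Glul, near 0 in the edgeR fit, gave 0.04 with the 7 libraries alone and with no filter, 0.03 with DESeq2 and RLE size factors, 0.13 among libraries with a clock score under 0, and -0.07 to 0.05 without 1 library, and Hp -0.09 to 0.62 without 1 library. Among libraries with a clock score under 0 Ppard was at 0.56 and Cyp4a14 at 0.39, where those over 0 gave called values of -1.78 and -2.49, and among those over 0 Hp was at -0.01 and Acta2 at -0.87. Of list medians, library size only gave 0.41 for sterol synthesis, 0.22 for glycolysis, 0.55 for the unfolded protein response and 0.14 for endothelium markers. The unfolded protein response median was 0.00 with the 7 libraries alone and with no filter, 0.34 over a clock score of 0, and -0.26 to 0.15 without 1 library. Below a clock score of 0 the medians of sterol synthesis, endothelium and Kupffer cell markers were 0.03, 0.06 and -0.70, and above it that of B and plasma cell markers was -0.09. Library size only moved the other 42 list medians by more than the spread between libraries, without a change of sign.

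Each KO group holds 3 libraries or fewer, so 1 library can decide a count of calls. Depth of 29906785 to 40544457 counts leaves the genes with few reads in a group with the wide counting intervals given above.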
